A study of Mus musculus with 16 samples.

Results

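In mouse small cell lung cancer (SCLC), the listed chromatin sites of 10 genes for neuronal RNA-binding proteins and splicing regulators were nearly all less accessible in non-neuroendocrine (non-NE) than in neuroendocrine (NE) cells. The genes are *Elavl2*, *Elavl3*, *Elavl4*, *Nova1*, *Nova2*, *Srrm4*, *Celf3*, *Celf4*, *Rbfox1* and *Rbfox3*. A peak was counted for one of these 10 member genes when, of all protein-coding transcription start sites (GENCODE basic annotation, mm10), the one nearest to its centre belonged to that gene. This rule took 223 of the 80367 peaks in the deposited lists. Of the 223 peaks, 214 were closed (less accessible) and 9 were opened (more accessible) in GFPhigh over GFPneg cells, so that 96.0% were closed (95% Wilson interval 92.5 to 97.9%). Among all listed peaks 49.2% were closed and 50.8% opened.

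The proteins of these genes bind pre-mRNA or mRNA in neurons. The neuronal ELAV (Hu) proteins bind AU-rich and U-rich sequences and act on the splicing and stability of transcripts, and antibodies to them are the anti-Hu antibodies of paraneoplastic disease in patients with SCLC. NOVA proteins bind YCAY elements, RBFOX proteins bind GCAUG elements, CELF proteins bind GU-rich elements, and SRRM4 promotes the inclusion of neuronal microexons. NE cells share many genes with neurons, and several of the genes here are in common use as markers of a neuronal program.

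ATAC-seq reads accumulate where the Tn5 transposase can reach the DNA, so the read count of a peak measures accessibility and not transcription. The mice were *TKO*;*Hes1* GFP/+. An adenovirus that expresses Cre from the CMV promoter had removed *Rb*, *p53* and *p130* in the lung cells of both groups, and GFP reported *Hes1*, a target of Notch signaling. Tumors of a mouse were pooled several months after induction and sorted into GFPhigh cells (labelled Hes1-GFP positive, non-NE) and GFPneg cells (labelled negative, NE), after cells with leukocyte, endothelial or erythroid surface markers had been gated out. The labels give 4 pairs of populations from 3 mice, as 8 libraries on 2 lanes each, and give no ages or other treatments. The CMV promoter is not specific to a cell type, and pooled tumors do not separate one tumor from another.

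The deposited lists hold only peaks whose log2 fold change exceeded 1 in either direction at an adjusted p below 0.001, each with 1 mean normalized count over all libraries, 1 log2 fold change with its standard error (SE) and 1 adjusted p from the authors' DESeq2 comparison. These values are printed here as they stand in the authors' deposited table. The lists hold no value per library. The depth per library is unknown, no SD between libraries can be given, the number of samples that entered the fit is not stated, and no test was added. In such bulk populations, lower accessibility in each cell and fewer cells with an accessible site cannot be told apart. Wilson intervals cover counting error only, and neighbouring peaks of a gene are not independent. As a check of the groups, 6 of 8 NE marker genes (among them *Insm1*, *Chga* and *Uchl1*) had a closed promoter peak and none an opened one, and 7 of 7 non-NE marker genes (among them *Hes1*, *Rest* and *Yap1*) had an opened promoter peak and none a closed one. Of all protein-coding genes, 8.43% had a closed promoter peak and 26.6% an opened one. Over all listed peaks nearest to the marker genes, the NE genes had 53 closed and 11 opened peaks, with *Chga* at 6 closed and 8 opened, and the non-NE genes had 20 closed and 75 opened peaks, with *Hes1* at 11 closed and 26 opened. No listed peak was nearest to *Syp* or *Dll3*. Of the peaks nearest to 5 leukocyte genes, 13 were opened and 7 closed, while for 3 endothelial genes 10 were opened and 35 closed, for 3 fibroblast genes 7 and 7, and for 2 erythroid genes 6 and 0. The endothelial gene *Kdr* and the fibroblast gene *Col1a1* had an opened promoter peak. The fibroblast gene *Col1a2* had a closed one, and the other genes of these groups had neither. Of the neuronal and glial genes, *Snap25* had 10 closed peaks and *Syt1* had 15, with no opened peak, whereas the glial genes *Gfap* and *Sox10* had 1 closed and 3 opened peaks together. The part of other cells in the results below was not tested.

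**Figure D1:**
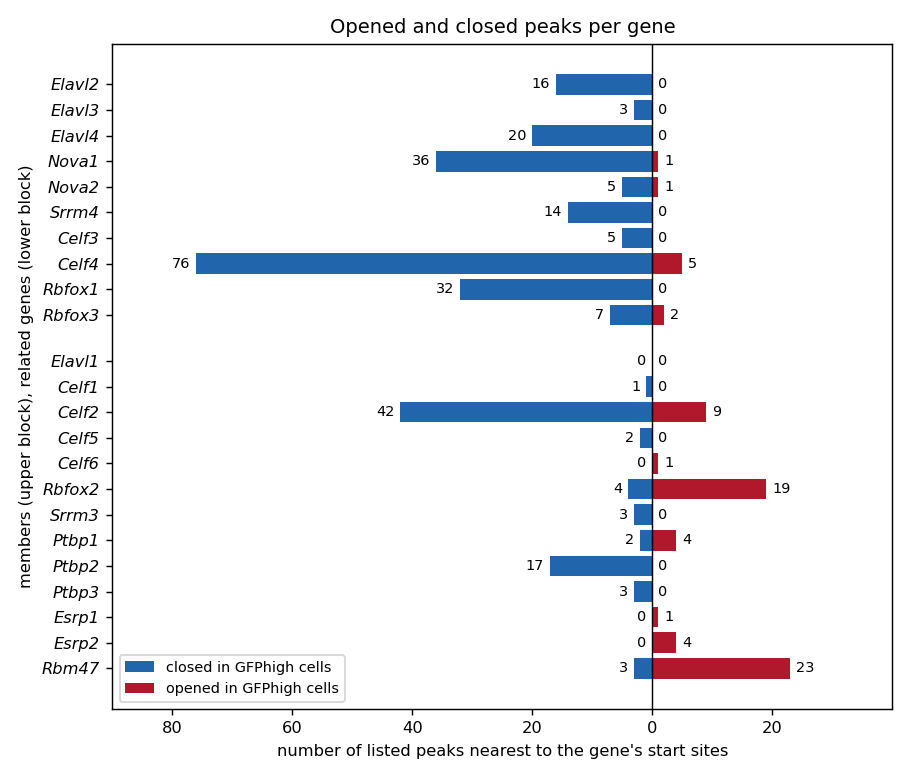
Number of listed peaks nearest to each gene (horizontal axis), with closed peaks to the left in blue and opened peaks to the right in red. The upper block holds the 10 member genes, where closed peaks outnumber opened ones in every gene, and the lower block holds paralogues, polypyrimidine-tract proteins and epithelial regulators, where *Rbfox2* (19 opened, 4 closed) and *Rbm47* (23 opened, 3 closed) point the other way.

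Every one of the 10 genes had more closed than opened peaks, and 6 of them had closed peaks only. In all, 6 genes had at least 10 listed peaks, and over 90% of the peaks were closed in all 6. Among the 2349 protein-coding genes with at least 10 listed peaks, 17.2% had such a share. All listed peaks were closed in 4 of the 6 genes, against 10.9% of the 2349. The promoters went the same way. Within 1 kb of a start site, 9 of the 10 genes had at least 1 closed peak, against 8.43% of all protein-coding genes, and none had an opened one, against 26.6% of all. The 23 promoter peaks of the members were all closed, while of all listed promoter peaks 25.7% were closed.

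The closed peaks of the members had a median log2 fold change of -2.86 (interquartile range -3.23 to -2.54), or a 7.26-fold lower accessibility, with a median SE of 0.45. The median of all 39539 closed peaks was -2.66. Changes over 4-fold made up 93.0% of the closed member peaks and 83.8% of all closed peaks. In the promoter peaks of the members the median log2 fold change was -2.88, against -2.21 for all closed promoter peaks, while closed peaks outside promoters had medians of -2.85 in the members and -2.69 in all. The median mean normalized count was 26.9 in closed member peaks and 25.8 in all closed peaks, so both rest on a similar number of reads. The median width was 234 bp against 248 bp, and the median GC content 49.1% against 48.9%.

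**Figure D2:**
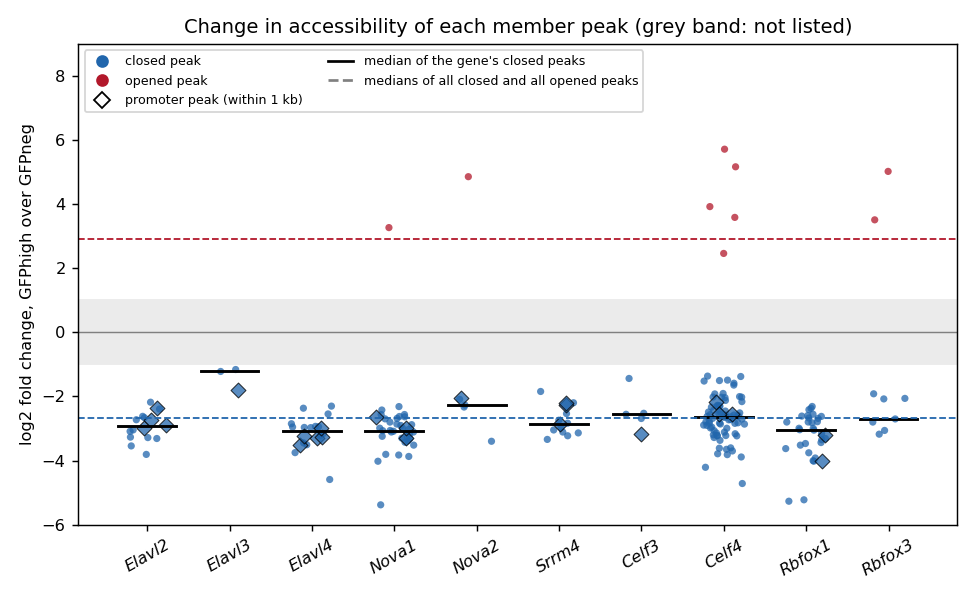
Log2 fold change of GFPhigh over GFPneg cells (vertical axis) for each of the 223 member peaks, by gene. Blue points are closed peaks, red points opened peaks, diamonds promoter peaks, black bars the median of a gene's closed peaks and dashed lines the medians of all closed and all opened peaks, and the grey band holds changes too small for the lists. The medians of 9 genes lie between -3.07 and -2.27, and that of *Elavl3* is -1.22.

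The neuronal ELAV genes *Elavl2* (HuB), *Elavl3* (HuC) and *Elavl4* (HuD) had 39 closed peaks between them and no opened peak, with a different range of values in each gene. *Elavl2* (chr4:91250763-91400785, minus strand) had 16 closed peaks, 4 of them at start sites. Its deepest promoter peak held a mean of 384 normalized reads and was 5.17-fold less accessible (log2 fold change -2.37, SE 0.19, DESeq2 adjusted p = 1.61e-32). Another promoter peak of *Elavl2* with 201 reads had a log2 fold change of -2.73 (SE 0.21), and the next with 118 reads one of -2.98 (SE 0.30). The outermost of the 4 held 7.59 reads and had a log2 fold change of -2.88 (SE 0.79). The promoters of *Elavl2* thus lie close together in their change and far apart in their reads.

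*Elavl4* (chr4:110203722-110351909, minus strand), which codes for the main antigen of anti-Hu antibodies, had 20 closed peaks with a median log2 fold change of -3.07. Of these, 5 lay at start sites, with log2 fold changes from -3.51 to -2.97. The peak at the outermost start spanned 757 bp, held 375 reads and was 7.83-fold less accessible (log2 fold change -2.97, SE 0.20, DESeq2 adjusted p = 2.92e-49). A group of 9 of the 20 peaks lay in one stretch of 50 kb inside the gene. The largest change, -4.59, was in an intergenic peak 22.8 kb upstream with 5.16 reads, and its SE was 1.23. This peak lay 22822 bp from a start of *Elavl4* and 22967 bp from one of *Agbl4*, so that its assignment rests on a small margin.

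*Elavl3* (chr9:22015005-22052023, minus strand) had the smallest changes of the members. Its promoter peak, with 69.0 reads, had a log2 fold change of -1.80 (SE 0.31, DESeq2 adjusted p = 2.19e-08). The other peaks of *Elavl3* had -1.22 (SE 0.27) at 1.3 kb inside the gene and -1.16 (SE 0.31) at 2.9 kb upstream. These 2 are also the closed member peaks nearest to the limit of the lists on the log2 fold change, though not to that on the adjusted p. All 3 estimates for *Elavl3* lie above the highest for *Elavl2* (-2.18, SE 0.42) and for *Elavl4* (-2.30, SE 0.65), but the gap from the promoter peak of *Elavl3* to either is within their SEs, and the difference between the genes was not tested. A peak below the limits would not have been listed, and weaker sites of any member are therefore not seen.

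The NOVA genes code for the KH-domain splicing regulators that are the antigens of anti-Ri antibodies. *Nova1* (chr12:46694517-46818929, minus strand) had 36 closed peaks and 1 opened peak in a territory of 2154 kb, the span in which its start site is the nearest. Its promoter peak was the most deeply covered of all member peaks and ranked 12 by reads among the 39539 closed peaks. It spanned 949 bp (chr12:46818885-46819833), held a mean of 685 normalized reads and was 6.19-fold less accessible (log2 fold change -2.63, SE 0.17, DESeq2 adjusted p = 1.08e-50). The 2 smaller promoter peaks just inside the gene had log2 fold changes of -3.30 (SE 0.33) and -2.98 (SE 0.46). The 200 bases upstream of the start site, all of them inside the deepest peak, are shown because no member peak had more reads. Capitals mark the match to the TEAD core CATTCC, the only match there among the 5 short cores searched (named with their counts after the REST sites). The bases are read 5′ to 3′ on the minus strand from GRCm38.p6, chr12:46818930-46819129.
Nova1 promoter: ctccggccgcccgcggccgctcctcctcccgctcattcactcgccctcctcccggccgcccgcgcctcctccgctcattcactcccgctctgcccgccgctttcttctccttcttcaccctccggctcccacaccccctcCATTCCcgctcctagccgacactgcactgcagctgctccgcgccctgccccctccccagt
Of the 37 peaks of *Nova1*, 28 lay outside the gene. Among them was a peak with 213 reads at 172.7 kb downstream of the start (log2 fold change -3.09, SE 0.20) and a peak with 142 reads at 263.9 kb (-3.03, SE 0.21). The only opened *Nova1* peak was 793.6 kb downstream of the start, in intergenic DNA, with a log2 fold change of 3.27 (SE 0.44).

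*Nova2* (chr7:18925888-18965319, plus strand) had 5 closed peaks and 1 opened peak. Its promoter peak, centred 554 bp upstream of the start, held 144 reads and had a log2 fold change of -2.05 (SE 0.20). An intron peak at 22.7 kb held 162 reads and was 10.5-fold less accessible (log2 fold change -3.40, SE 0.24, DESeq2 adjusted p = 4.3e-42). The opened peak lay 25.7 kb inside the gene, in an intron, 2.69 kb from that closed peak. It was 114 bp wide with 7.93 reads, and its log2 fold change of 4.86 had an SE of 1.16. The shallow opened peak and the deep closed peak thus moved in opposite directions inside 1 gene.

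*Srrm4* (chr5:116439275-116591817, minus strand), whose product also promotes the neuronal splice form of *Rest* transcripts, had 14 closed peaks and no opened one. Of these, 3 lay at start sites. The peak at the outermost start held 63.8 reads and was 7.32-fold less accessible (log2 fold change -2.87, SE 0.29, DESeq2 adjusted p = 1.67e-22). A peak centred 262 bp downstream of that start had -2.21 (SE 0.51), and one at an internal start near the end of the gene had -2.28 (SE 0.33). The 14 changes ranged from -3.34 to -1.84, and 2 of the peaks lay 217.7 and 236.9 kb upstream, in introns of other annotated genes.

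The CELF genes differ widely in length. *Celf3* (chr3:94478295-94492198, plus strand), which has a short gene of 13.9 kb, had 5 closed peaks and no opened one. Its promoter peak held 124 reads and was 9.03-fold less accessible (log2 fold change -3.18, SE 0.25, DESeq2 adjusted p = 2.85e-35). A pair of intron peaks at internal RefSeq start sites had log2 fold changes of -2.52 (SE 0.26) and -2.69 (SE 0.33), and another, between them, had -1.44 (SE 0.35).

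*Celf4*, on chromosome 18, had the most peaks of the 10 genes, 76 closed and 5 opened. Up to 19 closed peaks lay in 1 stretch of 50 kb inside the gene. Its 3 promoter peaks had log2 fold changes of -2.16 (SE 0.20, 179 reads), -2.56 (SE 0.25, 78.9 reads) and -2.54 (SE 0.35, 38.9 reads). The closed peaks as a whole ran from -4.72 to -1.36 with a median of -2.65. The deepest peak of *Celf4*, with 300.5 reads at 39.0 kb inside the gene and near a start site of another annotated gene, had one of the smaller changes (-1.92, SE 0.18). Closed peaks of *Celf4* reached out to 2243 kb upstream of the start, in a territory of 2552 kb. The median distance over all 81 peaks of the gene was 119 kb. The 5 opened peaks all lay far from the start as well. Of these, 2 lay at the 3′ end of the gene, 276.2 and 275.2 kb from the start (3.59 and 2.46), 2 lay 242.3 and 254.0 kb upstream (5.17 and 5.72) and 1 lay 538.1 kb upstream (3.93). Without *Celf4*, 138 of 142 member peaks, or 97.2%, were closed.

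The RBFOX genes have very long introns and alternative starts. *Rbfox1* (chr16:5885355-7411526, plus strand), which spans 1526 kb, had 32 closed peaks and no opened one, with a median log2 fold change of -3.04. The reads behind them were few, with a median of 15.2, and the largest change, -5.27 (SE 1.51), came from a peak with 3.24 reads. The deepest peak, an intron peak with 133 reads, was 10.8-fold less accessible (log2 fold change -3.44, SE 0.26, DESeq2 adjusted p = 3.54e-38). A pair of peaks at an internal start had log2 fold changes of -4.00 (SE 0.76) and -3.19 (SE 0.55). A cluster of 7 closed peaks lay in 50 kb around the outer end of the gene, where the basic annotation holds no start site and RefSeq does. The RefSeq promoter window there overlaps a closed peak (chr16:5884836-5884979), which the basic annotation puts 464.2 kb from the nearest start.

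*Rbfox3* (chr11:118489762-118911597, minus strand), which codes for the neuronal nuclear antigen NeuN, was the exception at promoters by the start sites of the basic annotation. It had 7 closed and 2 opened peaks, all inside the gene, and no listed peak within 1 kb of a start site. Its deepest peak held 67.9 reads at 112.3 kb and had a log2 fold change of -2.06 (SE 0.26). The opened peaks, at 43.1 and 52.7 kb inside the gene, had log2 fold changes of 5.02 (SE 0.69) and 3.51 (SE 0.48), and lay between closed ones. Of the other listed peaks on chromosome 11, 28.8% were closed, well below the 49.2% of all chromosomes, and the share in *Rbfox3* was 77.8%.

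**Figure D3:**
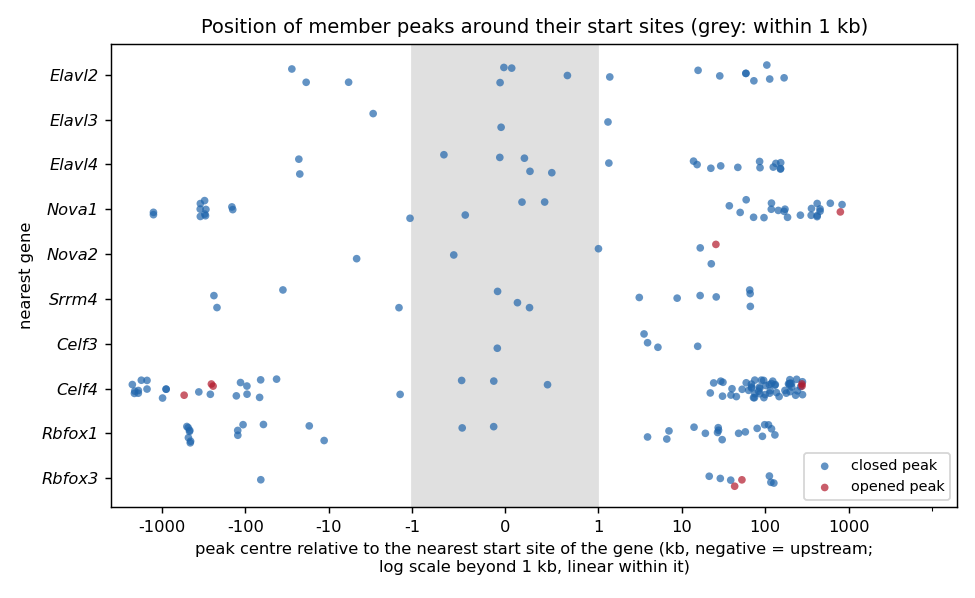
Position of each member peak's centre relative to the nearest start site of its gene (horizontal axis, in kb, on a log scale beyond 1 kb on either side and linear within it), by gene. Blue points are closed and red points opened peaks, and the grey band marks the 1 kb around start sites, where all 23 peaks are closed and the 9 opened peaks all lie farther out, the nearest at 25.7 kb.

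The closing extended far beyond the promoters. By the class of the peak centre, 55.6% of the closed member peaks were in introns, 31.3% were intergenic, 12.1% lay at any annotated start site and 0.935% were in exons. For all closed peaks the shares were 50.1%, 36.7%, 9.68% and 3.55%. Peaks over 100 kb from the start site made up 44.4% of the closed member peaks and 28.9% of all closed peaks. Of the 101 member peaks at such a distance, 94.1% were closed (95% Wilson interval 87.6 to 97.2%), against 67.5% of all listed peaks that far out. Between 1 and 100 kb, 96 of 99 member peaks were closed, or 97.0% (91.5 to 99.0%), against 47.9% of all listed peaks. The closed member peaks had a density of 2.42 per 100 kb of territory, against 1.45 over the genome. For 11 of the 223 peaks, all closed and nearest to *Celf3*, *Elavl4* or *Nova2*, a start site of another protein-coding gene was at most 10 kb farther away. For a distant peak the nearest gene may not be the gene it serves, and this was not tested.

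**Figure D4:**
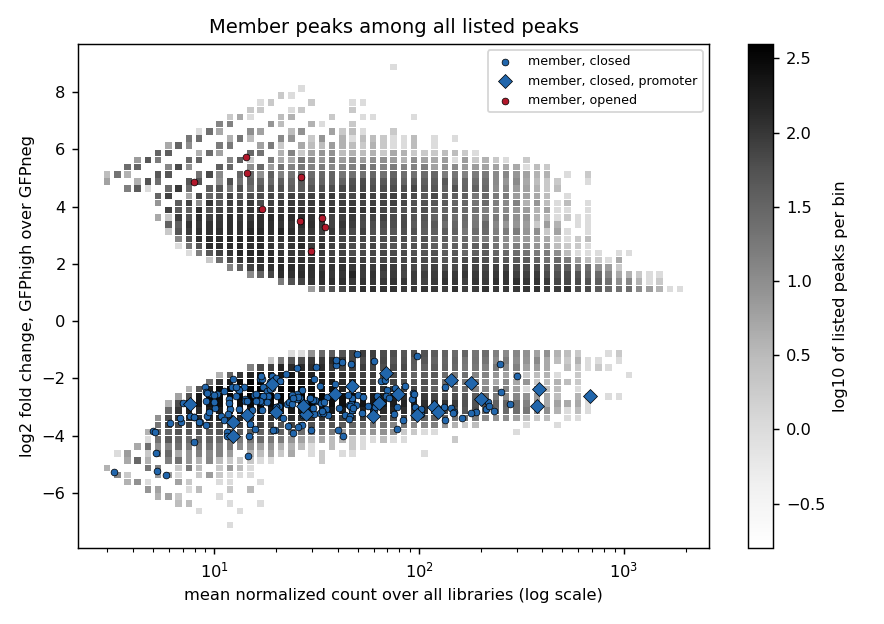
Log2 fold change of GFPhigh over GFPneg cells (vertical axis) against the mean normalized count over all libraries (horizontal axis, log scale). Grey squares count all 80367 listed peaks, coloured points are the 223 member peaks and diamonds are their promoter peaks; the largest changes sit at low counts, and the deepest member peak, at 685 reads, is the promoter of *Nova1*.

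The largest changes came from peaks with few reads. The 5 closed member peaks with a log2 fold change below -4.5, in *Celf4*, *Elavl4*, *Nova1* and *Rbfox1*, had between 3.24 and 14.6 reads and SEs from 0.79 to 1.51. A mean of over 100 reads was reached by 27 of the 214 closed member peaks, or 12.6%, and by 9.20% of all closed peaks. The 9 opened peaks had from 7.93 to 34.5 reads, so none was among the deep ones.

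REST represses neuronal genes outside neurons by binding a long element, and *Rest* itself had 3 opened peaks and no closed one, 2 of the 3 at its promoter. With up to 3 mismatches to the REST-NRSF consensus string of 20 bases, on either strand, a site was found in 3 of the 223 member peaks, in *Celf3*, *Srrm4* and *Nova2*. Such sites occurred in 92 of all 80367 peaks (0.114%), in 0.0733% of closed and 0.154% of opened peaks. In the members 2 of the 3 sites lay in closed promoter peaks. The other lay in the opened intron peak of *Nova2*, the only opened peak of that gene. The sites are shown because they fall on both sides of the comparison. They are read in the direction of the consensus from GRCm38.p6, with bases that match it in capitals and mismatches in lower case.
Celf3 site (chr3:94478013-94478032, minus strand): GGAGCTGTCCccGGTGCTGg
Srrm4 site (chr5:116591495-116591514, plus strand): GGCGCTGTCCgaaGTGCTGA
Nova2 site (chr7:18951595-18951614, plus strand): GctGCTGTCCtTGGTGCTGA
The *Celf3* site lies upstream of the start, in the outer end of the promoter peak that was 9.03-fold less accessible. The stretch from the edge of that peak to the start site (chr3:94478004-94478295, plus strand) reads as follows, with the site, here on the opposite strand, in capitals.
Celf3 promoter: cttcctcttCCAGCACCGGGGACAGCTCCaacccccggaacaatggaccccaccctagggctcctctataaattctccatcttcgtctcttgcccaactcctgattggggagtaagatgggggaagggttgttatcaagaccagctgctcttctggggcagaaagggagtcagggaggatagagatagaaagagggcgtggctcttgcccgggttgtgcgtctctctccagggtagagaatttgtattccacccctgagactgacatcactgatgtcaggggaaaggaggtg
The *Srrm4* site lies in the 5′ untranslated part of exon 1 (chr5:116591334-116591817) in the basic annotation, in the peak with a log2 fold change of -2.21. The opened *Nova2* peak (chr7:18951558-18951671, plus strand) is short enough to be shown whole, with the site in capitals near its middle.
Nova2 opened peak: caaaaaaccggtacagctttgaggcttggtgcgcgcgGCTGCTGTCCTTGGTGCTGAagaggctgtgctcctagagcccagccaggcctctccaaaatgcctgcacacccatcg
With up to 4 mismatches, 1 more member peak had a site, a closed peak of *Celf4* at 85.4 kb inside the gene with a log2 fold change of -1.36 (SE 0.38), which puts it among the smallest changes of the closed member peaks. At this setting 0.241% of all listed peaks held a site, 0.210% of the closed and 0.272% of the opened ones. A match is a stretch of letters, and binding of REST was not measured in these files.

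Shorter motif cores were counted in the central 200 bp of the closed member peaks, on both strands, to describe what else the peaks hold. The AP-1 core TGANTCA was in 28.5% of them, against 25.4% of all closed and 10.1% of all opened peaks. The TEAD core CATTCC was in 9.35%, against 7.76% and 17.0%. The FOX core TGTTTAC was in 7.48%, against 9.17% and 6.48%, the NFI half-site TTGGCA in 13.1%, against 12.2% and 16.7%, and the RBPJ core TGGGAA in 12.6%, against 14.6% and 19.0%. For 4 of the 5 cores the share in the members was nearer to that of all closed than to that of all opened peaks. FOX was the exception, on 16 of the 214 closed member peaks. The window was cut at the edges of a peak, and the median width was 300 bp in all opened and 234 bp in closed member peaks. Differences between these shares were not tested.

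Other RNA-binding genes served as the comparison, 34 in all, most of them in use in many tissues. Their 362 peaks were 58.0% closed (95% Wilson interval 52.9 to 63.0%), nearer to the 49.2% of all listed peaks than to the 96.0% of the members. Of the 34 genes, 16 had more closed than opened peaks, 12 had more opened, 1 had as many of each and 5 had no listed peak. A closed promoter peak was present in 7 of them, against 8.43% of all protein-coding genes, and an opened one in 10, against 26.6% of all.

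The paralogues of the members split. *Elavl1*, which codes for the ubiquitous HuR, had no listed peak at all, whereas its 3 neuronal paralogues had 39 closed ones. *Celf2* had 42 closed and 9 opened peaks, 3 of the closed ones at its promoter with log2 fold changes of -2.38, -2.02 and -1.92. *Celf5* had 2 closed peaks, 1 of them at its promoter (-2.18, SE 0.51), and *Celf1* had 1, at 21.7 kb upstream (-2.48, SE 0.68). *Celf6* had 1 opened peak (1.82, SE 0.40). *Srrm3*, a relative of *Srrm4* with a like role in microexons, had 3 closed peaks from -3.17 to -1.70. *Rbfox2*, the member of its family found in many tissues, went the other way with 19 opened and 4 closed peaks. Both of its promoter peaks were opened, one with 688 reads and a log2 fold change of 1.90 (SE 0.20) and one with 142 reads and 1.41 (SE 0.22). The RBFOX family therefore held *Rbfox1* with 32 closed peaks and no opened one beside *Rbfox2* with mostly opened peaks.

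The polypyrimidine-tract proteins repress neuronal exons, and neurons replace PTBP1 with PTBP2. *Ptbp1* had 4 opened and 2 closed peaks, and both of its promoter peaks were opened (1.99, SE 0.26, and 1.75, SE 0.36). *Ptbp2* had 17 closed peaks and no opened one, all of them far from its start sites, at 139.5 to 689.2 kb, where 67.5% of all listed peaks over 100 kb out were closed. *Ptbp3* had 3 closed peaks. The epithelial regulators were opened. *Esrp2* had 4 opened peaks, and its promoter peak with 417 reads had a log2 fold change of 2.25 (SE 0.20). *Rbm47* had 23 opened and 3 closed peaks, with 3 opened promoter peaks up to 4.64 (SE 0.38). *Esrp1* had 1 opened peak, at 15.8 kb inside the gene (5.05, SE 0.95). Among the other genes of the list, *Khdrbs3* with 44 closed and 1 opened peak and *Qk* with 6 closed and 22 opened peaks stood near the extremes, and both were picked out after their values were seen.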

How the data were processed

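Both peak lists and the values in them were made and deposited by the authors. By the study's methods and the labels, reads were aligned to mm10 with Bowtie2 2.3.4.1, duplicates were removed, MACS2 peaks of all samples were merged, reads per merged peak were counted, and the authors compared GFPhigh with GFPneg by DESeq2 1.28.1. The deposited signal of a peak is its normalized count averaged over the libraries. The deposited log2 values are the fold change and its standard error, and the deposited p-value used here is the adjusted one. These are the authors' own comparison, printed because the lists hold no value per library; nothing was refitted. Whether the lanes or the 2 pairs of 1 mouse were summed is not given in the sources used here. If they entered the fit as independent samples, the printed SEs and adjusted p would tend to be too small.

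Python 3.11.15, numpy 2.4.6, pandas 2.3.3, scipy 1.17.1 and matplotlib 3.10.9 were used. Every peak fell within the chromosomes of GRCm38.p6, the assembly of mm10. Positions are 1-based. Start sites came from GENCODE M21 basic. Promoter peaks had their centre within 1 kb of a start site of the nearest gene; classes (promoter, exon, intron, intergenic) used all annotated genes. A gene's territory is the span nearer to its start sites than to those of other protein-coding genes. The REST string came from the study's motif list, the other cores were chosen here. Assignment and site search were checked on simulated data. RefSeq promoter windows matched 9 of the 10 genes. Members, gene lists and motifs were chosen with earlier results of these data known. All members were named, each with its promoter peaks, its deepest peak and its largest change where it bears on the text, and so were the paralogues, PTBP genes and epithelial regulators. Alternatives were stricter limits, merging, other gene assignments and promoter widths, and leaving out the gene with most peaks. Peaks outside the lists were not analysed here, and 1 NE marker gene is not reported here.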

Additional observations from a re-analysis of the deposited data

How the results depend on the processing

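The share of member peaks that were closed stayed between 94.9 and 97.8%, and the median log2 fold change of closed member peaks between -2.98 and -2.81, under all 7 alternatives (absolute log2 fold change over 2, adjusted p under 1e-05, peaks within 100 bp merged, gene body with 10 kb on each side, start site at most 100 kb away, nearest start site of any annotated gene, and without *Celf4*). Among all listed peaks the closed share was 44.3 to 53.1% under the 4 of these settings in which it was computed. The number of closed member peaks, 214 as reported, was 119 with the start site at most 100 kb away, 88 by the nearest start site of any gene and 138 without *Celf4*; that of opened ones, 9, was 3, 2 and 4. Fewer peaks enter by the construction of each of these settings. A closed promoter peak was found for 8 or 9 of the genes under these settings and with a promoter of 3 kb. The limit of 100 kb and the wider promoter could not lower this count, and leaving out *Celf4* had to lower it. A RefSeq window overlapped a closed peak in 7 of the 9 genes with windows, against 4.71% of all genes with windows. *Nova2* and *Rbfox3* had no such overlap, and this alternative was chosen after seeing the data. REST sites were in 2 to 4 member peaks, and 53.1 to 58.0% of peaks of the related genes were closed. No paired analysis was possible because the lists hold no values per library. For the same reason no replicate could be left out, and accessible sites that changed less than the limits of the lists are not seen.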
